A study of Cucumis sativus with 6 samples.

Results

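The flesh of young cucumber (Cucumis sativus) fruits was followed from day 6 to day 9 after self-pollination, in 1 library at day 9 and 1 library at day 6. A gene was described when it reached 1 FPKM or more (fragments mapped to a gene, per kilobase of its length and scaled to library size) in either of these libraries, which held for 17067 of the 21317 genes in the table. Each gene's difference was taken as log2((day 9 FPKM + 1) / (day 6 FPKM + 1)), so a positive value means a higher level at day 9, and the added 1 understates the change of low genes. The fruits came from the inbred line YB in a study of genes related to fruit astringency, the drying mouthfeel of tissue rich in some polyphenols. Peel and flesh were dissected at days 3, 6 and 9, giving 6 libraries, and each was prepared from RNA of 3 mixed fruits. All fruits were of 1 line and were self-pollinated, and no treatment is named. With 1 library per tissue and day no difference has a replicate check, no test across genes was possible, and every value below describes these libraries.

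After pollination, cells of a cucumber ovary divide for some days, and the fruit then enlarges mainly through uptake of water into growing cells. Enlargement needs a wall that is loosened and rebuilt, aquaporins in the membranes, and sugars delivered by the phloem. The flesh encloses the seed cavity, where young seeds form inside ovules whose inner tissue, the nucellus, surrounds the embryo sac and is consumed as the seed grows.

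The levels of most genes were close at the 2 days. The median log2 difference was -0.012, 13718 genes (80.4%) differed by less than 2-fold, and the 5th and 95th percentiles were -1.23 and 1.65. With that median, negative and positive differences were about equally common over all genes. Past the bound of 4-fold, 584 genes were higher at day 9, which is 3.42% of those described, and 178 were lower, which is 1.04%. At 2-fold these counts were 1982 (11.6%) and 1367 (8.01%). The imbalance was greatest among abundant genes. Of the 1543 genes at 100 FPKM or more in their higher library, 158 were at least 4-fold higher at day 9 and 8 were at least 4-fold lower, whereas the 3257 genes at 1 to 5 FPKM gave 29 and 44. The reads assigned to genes, recovered from the scaled counts, numbered 19151955 at day 9 and 23740219 at day 6, and the 6 libraries ranged from 14899922 to 23740219. Of the 584 genes 31 had fewer than 10 reads in the day 9 library, and of the 178 genes 38 had fewer than 10 in the day 6 library. At the limit of 1 FPKM, the genes just inside had 1.001 FPKM in their higher library and differences of -0.21, -0.43 and 0.45, those just outside had 0.999 FPKM and differences of 0.19, -1.0 and 0.28, and 0 genes outside the limit differed by 4-fold.

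**Figure D1:**
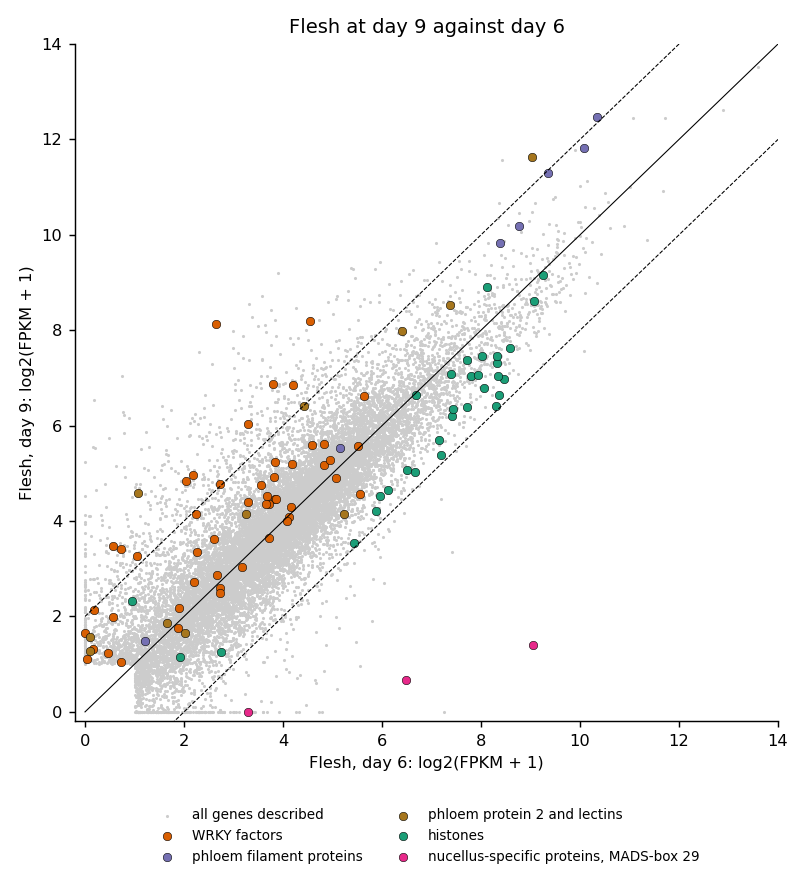
Level of each of the 17067 genes described in flesh at day 9 (vertical axis) against day 6 (horizontal axis), both as log2(FPKM + 1), with equal levels as a solid line and 4-fold bounds as dashed lines. All 7 phloem filament genes, 9 of 11 phloem protein 2 and lectin genes and 41 of 50 WRKY factors lie above the line. Below it lie 29 of 31 histones, and the 3 genes of the nucellus list lie below the lower bound. The phloem filament, phloem protein 2 and nucellus lists were formed after values were seen, so their place was partly fixed in advance.

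The tissue label was checked against genes of other tissues. Cuticle and wax genes, which act in the epidermis, were low in the flesh libraries: the 32 genes of that list summed to 158 FPKM in flesh at day 9 and 198 FPKM in flesh at day 6, against 1017 and 527 FPKM in peel at those days, and 11 and 6 of them were listed at 0 in flesh. An Agamous MADS-box factor (Csa1G467100), of the class that specifies carpels, stood in flesh at 315, 422 and 449 FPKM over days 3, 6 and 9, with 35.9, 14.3 and 3.91 FPKM in peel. The cuticle list as a sum and the Agamous factor matched the label. The Agamous factor was named as the most abundant MADS gene and was not a marker set out beforehand. YABBY genes, also set out as peel markers, did not separate the tissues. They summed to 371 FPKM in flesh against 344 FPKM in peel at day 9, and to 294 against 355 FPKM at day 6. A member of the cuticle list went against the label: the CER1 protein Csa3G127760 had 27.3 FPKM in flesh at day 6 against 0.998 FPKM in peel. At day 3 the cuticle list sums were closer, with 261 FPKM in flesh and 372 FPKM in peel. The list of phloem proteins and the genes named after the nucellus, described below, were present in flesh as well. In whole tissue, fewer cells of a type and less RNA per cell cannot be told apart. Whether ovules and young seeds were dissected with the flesh is not given in the sources used here.

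Genes named after the nucellus stood out at the low end. A Seed nucellus-specific protein (Csa3G630260, chromosome 3 at 24543274 to 24543894) had 1.65 FPKM in flesh at day 9 against 529.8 FPKM at day 6, with 94.7 FPKM at day 3. Its log2 difference of -7.65 was the lowest among genes with a product name and at least 20 FPKM in the higher library, from 18 reads at day 9 and 7900 at day 6. With the scaling of the deposited counts, its reads were 327-fold lower at day 9 (exact 95% interval 207 to 552). This interval, like all intervals of read ratios below, covers counting error only. The other gene of that name (Csa6G109680, chromosome 6) had 0.597 FPKM at day 9, from 2 reads, against 89.1 FPKM at day 6, from 414 reads, a ratio of 154 with an interval of 42.4 to 1278. In peel Csa3G630260 had 0.627, 0.761 and 0.960 FPKM over days 3, 6 and 9, and Csa6G109680 was listed at 0. The MADS-box transcription factor 29 (Csa6G526550), whose namesake in rice acts in the breakdown of the nucellus, was listed at 0 at day 9 against 8.79 FPKM at day 6 and 301 reads at day 6. Set against a limit of 3 reads at day 9, it was at least 74.8-fold lower. The exact 95% interval, wider than that limit, starts at 60.4-fold, and for each gene set against 3 reads below it likewise starts under the printed fold. The 3 genes summed to 104, 628 and 2.24 FPKM in flesh over days 3, 6 and 9. The day 6 library held their highest level and the day 9 library their lowest. They were grouped after values were seen, so the low day 9 sum follows in part from that choice.

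Other genes with low levels in peel had the same order of days 6 and 9 in flesh, and were named for the size of that difference. The Transcription factor MADS-box 2 (Csa6G095270) had 4.47 FPKM at day 9 against 42.0 FPKM at day 6, and 48.6 FPKM at day 3, with under 0.1 FPKM in each peel library. A putative 14 kDa proline-rich protein DC2.15 (Csa3G027210), a small wall-associated protein, had 9.25 FPKM at day 9 against 170.4 FPKM at day 6, and at most 0.215 FPKM in peel. A UDP-glycosyltransferase (Csa4G415930), of the enzymes that add sugars to small molecules, had 0.957 FPKM at day 9 against 45.7 FPKM at day 6, and at most 0.146 FPKM in peel. These 3 genes were lower at day 9 by 9.57-fold, 19.0-fold and 48.1-fold in reads. A Cysteine-rich repeat secretory protein (Csa7G044830) was listed at 0 at day 9 against 26.5 FPKM at day 6 and 546 reads at day 6, which is at least 136-fold lower. In peel it had 0.109, 0 and 1.65 FPKM over days 3, 6 and 9, so at day 9 it was detected in peel and not in flesh.

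Single members of some transcription factor families were also near 0 FPKM in flesh at day 9, picked here for their low values and not as a direction of their families. A pair of Homeobox-leucine zipper proteins GLABRA lay side by side on chromosome 3, from 21112383 to 21121742, and belong to a family known for control of epidermal cells. Csa3G484830 was listed at 0 at day 9 against 6.59 FPKM at day 6, at least 26.8-fold lower. Csa3G484840 had 0.0294 FPKM at day 9, from 1 read, against 5.58 FPKM at day 6, from 253 reads, a ratio of 189 with an interval of 33.5 to 7477. A MYB transcription factor (Csa5G148680) was listed at 0 at day 9 against 5.62 FPKM at day 6. The genes Csa3G484840 and Csa5G148680 were picked after their values were seen. The YABBY protein Csa2G348870, a regulator of organ sides, was at 0 FPKM at day 9 against 5.46 FPKM at day 6, while the most abundant YABBY gene (Csa6G426940) had 368 FPKM at day 9 against 286 FPKM at day 6. Taking genes below 1 FPKM in all peel libraries and at 5 FPKM or more in a flesh library of either day, 18 of 70 (25.7%) were at least 4-fold lower at day 9 and 10 (14.3%) were at least 4-fold higher. Among all 13810 genes at 5 FPKM or more the shares were 0.970% and 4.02%. The 70 genes had a median difference of 0.09.

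Most genes of cell division were lower at day 9. Of 170 cell cycle genes described, of 181 in the table, 58 were at least 2-fold lower and 5 at least 2-fold higher, and the median difference was -0.58. All but 3 of the 48 kinesins, motors of the spindle and of vesicle transport, had negative differences, with a median of -0.69. Of these kinesins, a subset formed after values were seen, 19 (39.6%) were at least 2-fold lower. Histones stood lowest among the larger lists: 18 of 31 were at least 2-fold lower, 1 was at least 2-fold higher, and the median was -1.21. A Histone H4 (Csa6G193580) had 84.1 FPKM at day 9 against 317 FPKM at day 6, and a Histone H2B (Csa1G132150) had 10.7 FPKM against 42.0 FPKM. The most abundant histone, a Histone H3 (Csa4G026900), had 574 FPKM at day 9 and 606 FPKM at day 6. Of 58 DNA replication genes 18 were at least 2-fold lower and 0 at least 2-fold higher. Among them the Proliferating cell nuclear antigen (Csa6G188070), the sliding clamp of DNA polymerase, had 9.36 FPKM at day 9 against 38.1 FPKM at day 6.

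A B-type cyclin (Csa6G454370), of the cyclins that drive entry into mitosis, had 0.693 FPKM at day 9 against 13.5 FPKM at day 6, from 4 and 109 reads, and was 20.3-fold lower in reads (7.71 to 75.9). In peel the same gene had 26.6 FPKM at day 9 and 19.5 FPKM at day 6. The 1 cell cycle gene past 4-fold in the other direction, Cyclin-C1-1 (Csa2G337770), rested on 1 read at day 9 and 0 reads at day 6, so no fold is given for it. A gene named Meiosis 5 (Csa6G178950) had 0.399 FPKM at day 9 against 33.1 FPKM at day 6 in flesh, and 6.67 FPKM at day 9 against 126 FPKM at day 6 in peel. Tubulins, the subunits of microtubules and a list formed after values were seen, had a median of -1.05, with 6 of 12 at least 2-fold lower. The abundant Tubulin alpha chain Csa4G000580 had 505 FPKM at day 9 against 1300.0 FPKM at day 6. The Putative tubulin beta-6 chain (Csa1G629200) had 17.0 FPKM at day 9 against 86.5 FPKM at day 6, with 24.7 FPKM at day 3, so the day 6 library was the high one.

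Genes of protein synthesis leaned lower as well, by a smaller step. Of 170 cytosolic ribosomal protein genes 137 had negative and 33 positive differences, the median was -0.50, and 13 (7.65%) were at least 2-fold lower, a share close to the 8.01% over all genes. Their summed level was 49426 FPKM at day 9 against 65155 FPKM at day 6, which is 7.0% and 10.3% of all FPKM in those libraries. The 60S ribosomal protein L29 (Csa6G309950) had 71.9 FPKM at day 9 against 219 FPKM at day 6, whereas the most abundant member, the 40S ribosomal protein S27 (Csa5G466870), had 1639 FPKM at day 9 and 1523 FPKM at day 6. Elongation factor 1-alpha (Csa2G139820), which brings charged tRNA to the ribosome, was among the 5 largest losses in FPKM, at 1947 FPKM at day 9 against 3287 FPKM at day 6. All these lists were lower at day 9 than at day 6 in peel too, with median differences of -0.90 for the cell cycle, -1.68 for histones, -0.92 for DNA replication, -0.69 for ribosomal proteins and -1.17 for tubulins.

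**Figure D2:**
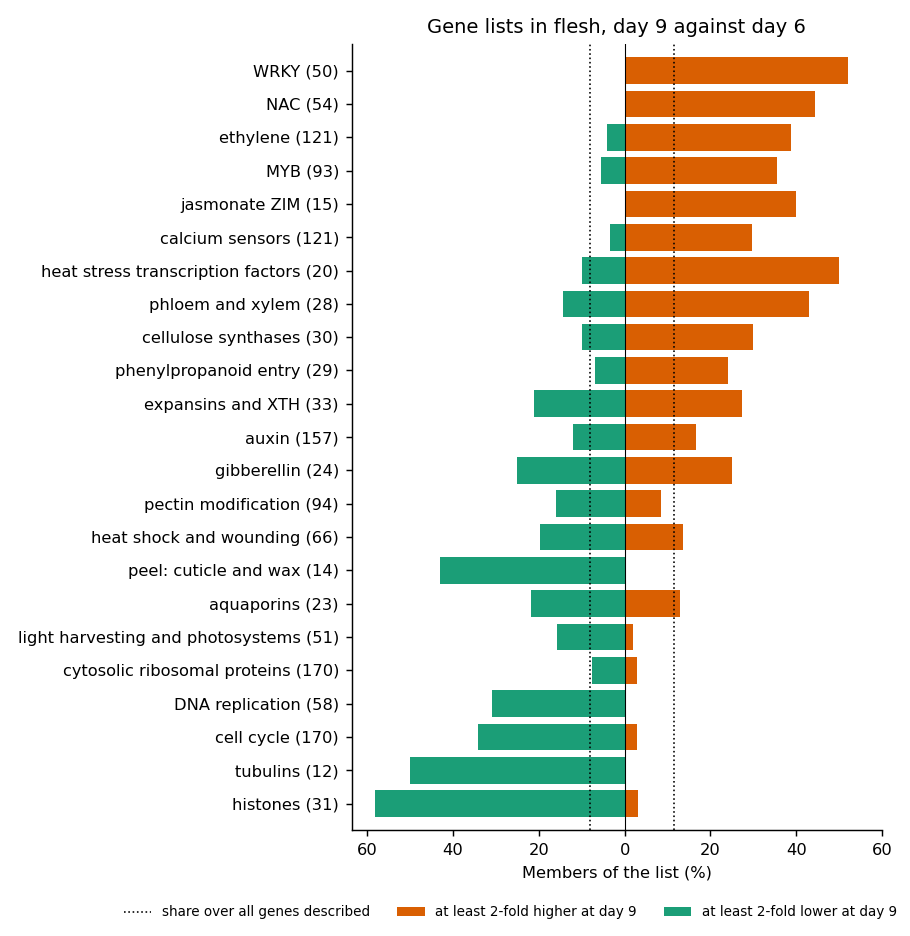
Share of each gene list (members described, in parentheses) at least 2-fold higher in flesh at day 9 (bars to the right) and at least 2-fold lower (bars to the left), with dotted lines at the shares over all genes, 11.6% and 8.01%. WRKY factors reach 52.0% higher and 0 lower, and histones reach 58.1% lower. The jasmonate ZIM, calcium sensor, heat stress factor and tubulin lists were formed after values were seen.

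Wall genes split by family and by member. Of 16 XTH genes described, xyloglucan endotransglucosylase/hydrolases that cut and rejoin the xyloglucan tethers of the wall, 6 were at least 2-fold higher and 5 at least 2-fold lower at day 9. Xyloglucan endotransglucosylase/hydrolase 2 (Csa1G422480) had 422 FPKM at day 9 against 11 FPKM at day 6, a read ratio of 37.6 (33.4 to 42.6), and in peel it had 1282 FPKM at day 9 against 70.0 FPKM at day 6. A neighbouring pair of Xyloglucan endotransglucosylase/hydrolase 1 genes on chromosome 6 were also high at day 9: Csa6G423400 had 69.4 FPKM at day 9 against 2.00 FPKM at day 6 and Csa6G423390, chosen after its values were seen, had 67.5 FPKM at day 9 against 3.58 FPKM at day 6. In peel both were lower at day 9, at 1.01 FPKM at day 9 against 3.06 FPKM at day 6 and at 3.74 FPKM at day 9 against 22.7 FPKM at day 6. The most abundant member in flesh, Xyloglucan endotransglucosylase/hydrolase 5 (Csa3G845490), had 683 FPKM at day 9 and 509.9 FPKM at day 6, a difference of 0.42 in flesh against -1.90 in peel.

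Expansins, which loosen walls without cutting them, had a median of -0.03. Of these 3 of 17 (17.6%) were at least 2-fold higher and 2 (11.8%) at least 2-fold lower. Of 30 cellulose synthase genes 9 were at least 2-fold higher and 3 lower, with a median of 0.50 in flesh and -0.21 in peel. The Cellulose synthase, putative (Csa7G129380) had 24.8 FPKM at day 9 against 2.04 FPKM at day 6, and the most abundant Cellulose synthase (Csa6G014800) had 364 FPKM at day 9 against 246 FPKM at day 6. Pectin genes had a median of -0.23, with 15 of 94 at least 2-fold lower and 8 higher. A pair of Pectinesterases, which strip methyl groups from pectin, were higher: Csa5G139430 had 61.1 FPKM at day 9 against 6.28 FPKM at day 6, and Csa3G000060 had 116 FPKM at day 9 against 14.2 FPKM at day 6. A Polygalacturonase-inhibitor protein (Csa4G154320), which blocks pectin-cutting enzymes of fungi, stood at 2366, 613 and 156 FPKM in flesh over days 3, 6 and 9. In peel it had 914, 67.9 and 5.18 FPKM.

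Small proteins linked to gibberellin and auxin went both ways. The Gibberellin-regulated protein Csa3G872170, a small cysteine-rich protein of the kind first found as gibberellin-induced, had 589.8 FPKM at day 9 against 13.9 FPKM at day 6, and 3.24 FPKM at day 3. In peel it had 301 FPKM at day 9 against 14.4 FPKM at day 6. Others of the same name were lower at day 9, Csa3G826660 at 189.6 FPKM at day 9 against 1088 FPKM at day 6 and Csa2G354910 at 2.75 FPKM at day 9 against 54.9 FPKM at day 6. The gibberellin list as a whole had 6 of 24 genes at least 2-fold higher and 6 at least 2-fold lower. Of 48 SAUR and auxin-induced genes, of a class known for fast induction by auxin during cell elongation, 17 were at least 2-fold lower and 6 at least 2-fold higher. This list was formed after values were seen, and its median of -0.40 turned to 0.04 with a limit of 5 FPKM in either flesh library. A run of 3 of these genes on chromosome 2, from 12571083 to 12577945, was at least 4-fold lower on the FPKM + 1 scale. In it Csa2G258750 had 1.76 FPKM at day 9 against 43.5 FPKM at day 6. Csa2G258720, chosen after its values were seen, had 0.646 FPKM at day 9 against 18.4 FPKM at day 6. Csa2G258730, chosen in the same way, was listed at 0 FPKM at day 9 against 3.20 FPKM at day 6 from 9 reads. Against a limit of 3 reads it was only at least 2.24-fold lower, so its reads do not bear out 4-fold. The Auxin induced-like protein Csa7G041870 went the other way, with 294 FPKM at day 9 against 13.3 FPKM at day 6, and the most abundant member, Auxin-induced protein 5NG4 (Csa2G251520), had 1364 FPKM at day 9 and 1327 FPKM at day 6. The GH3.3-type synthetase Csa6G492310, which ties auxin to amino acids, had 24.2 FPKM at day 9 against 0.172 FPKM at day 6 in flesh, and 1.44 FPKM at day 9 against 6.71 FPKM at day 6 in peel.

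Lists of water channels and of photosynthesis leaned to lower values at day 9. The most abundant Aquaporin (Csa6G448110) had the largest loss in FPKM among genes with a product name, with 946 FPKM at day 9 against 2599 FPKM at day 6, and 2896 FPKM at day 3. Another Aquaporin (Csa5G199270) had 2.20 FPKM at day 9 against 24.3 FPKM at day 6. The aquaporin list summed to 5318 FPKM at day 9 against 8870.2 FPKM at day 6, with 5 of 23 at least 2-fold lower and 3 at least 2-fold higher. Of 51 genes of light harvesting and photosystems 8 were at least 2-fold lower and 1 higher, with medians of -0.30 in flesh and -0.76 in peel. The Chlorophyll a-b binding protein Csa6G139750, an antenna protein, had 253 FPKM at day 9 against 566 FPKM at day 6. In the chlorophyll pathway 16 of 19 genes had negative differences, with a median of -0.25. Of them 2 (10.5% of the 19) were at least 2-fold lower, a share near the 8.01% over all genes. The exception past 4-fold was a Glutamyl-tRNA reductase (Csa7G068600), the entry enzyme. It had 19.2 FPKM at day 9 against 2.77 FPKM at day 6, and 12.8 FPKM at day 3. This gene shares its locus with another, so reads may be split between them. Carotenoid genes were balanced, with a median of 0.04, though a Phytoene synthase (Csa5G320430), which makes the first carotenoid, had 51.5 FPKM at day 9 against 11.2 FPKM at day 6.

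Phloem proteins of the cucurbit type gave the largest gains in abundance. The phloem list summed to 1507, 5027 and 18131 FPKM in flesh over days 3, 6 and 9, and its share of all FPKM was 2.57% at day 9 against 0.797% at day 6. Over the same days it summed to 12603, 8832 and 14651 FPKM in peel. A Phloem filament protein (Csa7G067350, chromosome 7 at 4102337 to 4102993), the structural protein of the slime that plugs cut sieve tubes, had 5655 FPKM at day 9 against 1304 FPKM at day 6, and 517 FPKM at day 3. All 7 filament protein genes described had positive differences, from 0.29 to 2.12. This subset, and those of phloem protein 2 and of sieve element occlusion proteins below, were formed after values were seen. A Phloem protein 2 (Csa1G542510), the lectin that crosslinks these filaments, had 3178 FPKM at day 9 against 525 FPKM at day 6, and 84.8 FPKM at day 3. Its neighbour Csa1G542500 had 23.1 FPKM at day 9 against 1.11 FPKM at day 6. Of 11 phloem protein 2 and lectin genes 7 were at least 2-fold higher and 1 was at least 2-fold lower. The F-box protein PP2-B1 (Csa7G056500), which shares the phloem protein 2 domain, had 3518 FPKM at day 9 against 952 FPKM at day 6. Sieve element occlusion proteins, another class of sieve tube filaments, did not follow: 0 of 10 were at least 2-fold higher and 3 were at least 2-fold lower. Of these the Sieve element occlusion protein 1 Csa2G196900 had 5.46 FPKM at day 9 against 64.6 FPKM at day 6 in flesh, and 2.01 FPKM at day 9 against 16.5 FPKM at day 6 in peel.

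Major latex-like proteins, small proteins of the birch pollen allergen fold, were among the other large gains. Major latex-like protein 1 (Csa3G331330) had 3046 FPKM at day 9 against 341 FPKM at day 6, and 183 FPKM at day 3, a read ratio of 9.14 (8.88 to 9.41). Csa3G333840 of the same name had 371 FPKM at day 9 against 8.88 FPKM at day 6. In peel these genes had 414 FPKM at day 9 against 278 FPKM at day 6 and 46.7 FPKM at day 9 against 5.97 FPKM at day 6. With Csa3G331340 (24.1 FPKM at day 9 against 4.88 FPKM at day 6) and the MLP-like protein Csa3G337350 (5.47 FPKM at day 9 against 0.445 FPKM at day 6), both chosen after their values were seen, they formed a stretch of 4 genes on chromosome 3, from 17798073 to 17883151, all at least 4-fold higher at day 9. Such neighbours may be near-identical copies, among which reads can be split. The gene named MLP (Csa3G172370), also chosen after its values were seen, was already at its late level at day 6, with 3565, 12298 and 11688 FPKM in flesh over days 3, 6 and 9.

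Transcription factor families linked to stress, defence and hormone responses leaned to higher values at day 9. Of 50 WRKY genes, plant factors with many roles in defence, 26 were at least 2-fold higher and 0 at least 2-fold lower, with a median of 1.01 in flesh and 0.51 in peel. The Putative WRKY transcription factor 30 (Csa3G119700) had 279 FPKM at day 9 against 5.26 FPKM at day 6, and 41.7 FPKM at day 3, a read ratio of 52.9 (45.5 to 61.8). In peel it had 175, 213 and 229.7 FPKM over days 3, 6 and 9. WRKY transcription factor 4 (Csa3G710870) had 290.0 FPKM at day 9 against 22.5 FPKM at day 6, and 294 FPKM at day 3, so its day 9 value was close to that of day 3. Of 54 NAC genes 24 were at least 2-fold higher and 0 at least 2-fold lower, led by Csa4G361820 with 156 FPKM at day 9 against 4.94 FPKM at day 6. Of 93 MYB genes 33 were at least 2-fold higher and 5 lower, among them Csa4G641690 with 85.1 FPKM at day 9 against 4.98 FPKM at day 6. Medians for day 9 over day 3 in flesh were 0.42 for WRKY, 0.84 for NAC and 0.31 for MYB genes. Over day 6 they were 1.01, 0.80 and 0.55. Homeobox genes were more evenly split, with 13 of 77 (16.9%) at least 2-fold higher and 10 (13.0%) lower. Among them Csa3G119240 had 165 FPKM at day 9 against 10.9 FPKM at day 6.

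Among genes with a product name and at least 20 FPKM in the higher library the largest difference upward was that of a Dehydration responsive element binding transcription factor 1B (Csa3G180260, chromosome 3 at 12347141 to 12348070), of the family that switches on cold and drought genes in Arabidopsis. It had 131 FPKM at day 9 against 0.680 FPKM at day 6, from 2236 and 16 reads, a ratio of 188 (115 to 329). Another gene of that name, Csa5G155570, had 45.9 FPKM at day 9 against 0.124 FPKM at day 6, from 823 and 3 reads, a ratio of 368 (126 to 1788). All 4 genes of the group, a list added after values were seen, were at least 2-fold higher, and they summed to 34.4, 3.02 and 215 FPKM in flesh over days 3, 6 and 9 and to 162, 111 and 125 FPKM in peel. Heat stress transcription factors, a list also added after values were seen, had 10 of 20 genes at least 2-fold higher and 2 lower. Among them Csa6G490870 had 29.4 FPKM at day 9 against 0.760 FPKM at day 6.

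Signalling genes named here were also higher at day 9. Their calcium sensor, phosphatase and U-box lists were formed after values were seen, so the counts are no separate support for a direction. A Calmodulin (Csa1G002110), a calcium sensor, had 183 FPKM at day 9 against 7.48 FPKM at day 6, while the most abundant Calmodulin (Csa1G600260) had 1233 FPKM at day 9 and 1026 FPKM at day 6. Of 121 calcium sensor genes 36 were at least 2-fold higher and 4 lower. A Protein phosphatase-2C (Csa7G414440), of a family that includes brakes on abscisic acid signalling, had 308 FPKM at day 9 against 9.41 FPKM at day 6. It shares its locus with another gene, so reads may be split between them. Of 52 such phosphatases 11 (21.2%) were at least 2-fold higher and 2 (3.85%) lower. A U-box domain-containing protein (Csa3G782630), of a family of ubiquitin ligases, had 73.7 FPKM at day 9 against 0.722 FPKM at day 6, and 14 of 53 U-box genes were at least 2-fold higher against 2 lower. A Putative receptor-like protein kinase (Csa1G597020) had 45.2 FPKM at day 9 against 0.144 FPKM at day 6 in flesh, and 95.1 FPKM at day 9 against 16.9 FPKM at day 6 in peel. Protein LURP-one-related 17 (Csa4G050160) had 70.5 FPKM at day 9 against 0.845 FPKM at day 6, and a Putative integral membrane protein (Csa2G360800) had 52.5 FPKM at day 9 against 0.405 FPKM at day 6. A gene named only after a rice cDNA clone (Csa5G571440) had 186 FPKM at day 9 against 3.96 FPKM at day 6. Among genes without a product name the largest difference upward, chosen after its values were seen, was that of Csa4G000770, with 91.3 FPKM at day 9, from 491 reads, against 0.133 FPKM at day 6, from 1 read, a ratio of 659 (118 to 26073). Its peel libraries had at most 0.233 FPKM.

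**Figure D3:**
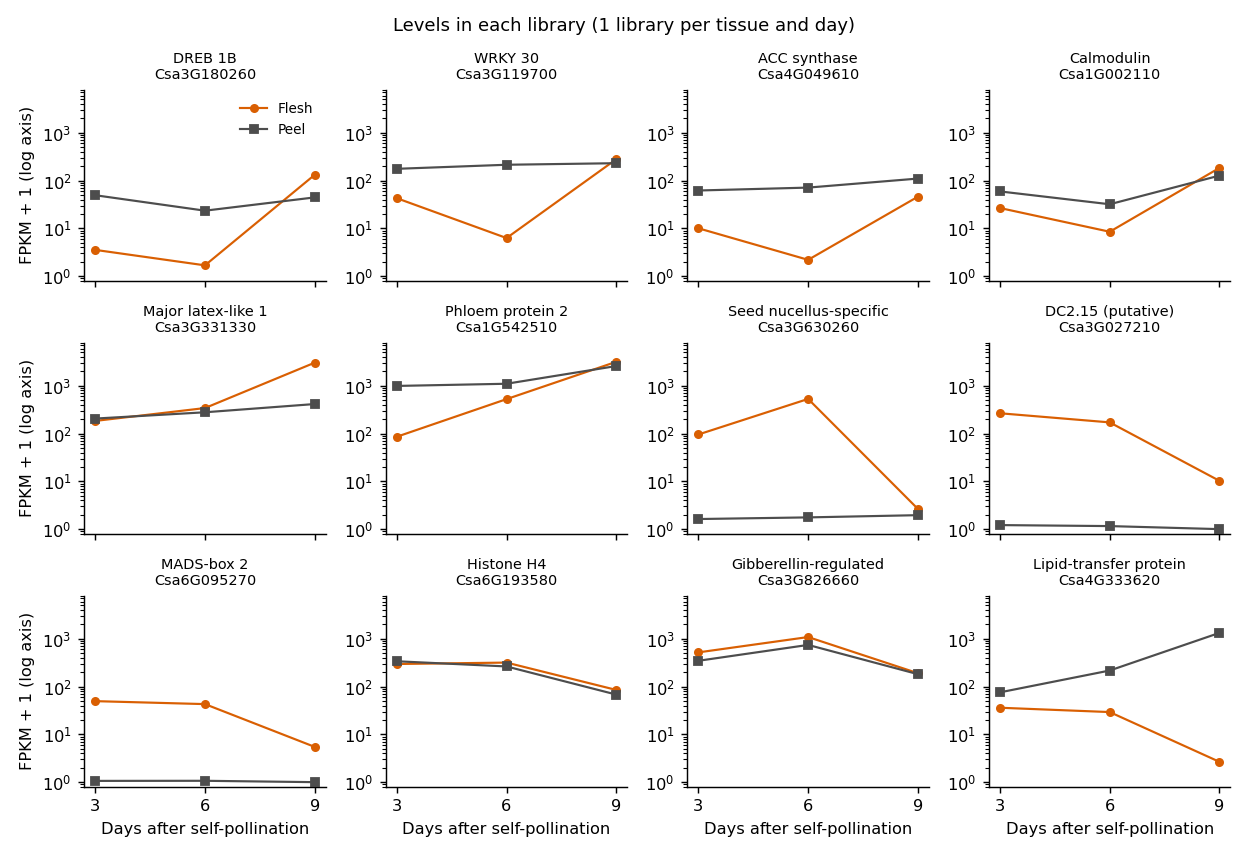
FPKM + 1 on a log axis at days 3, 6 and 9 in flesh (circles) and peel (squares) for 12 genes, 1 library per point and no error bars. In flesh WRKY 30 is at 279 FPKM at day 9 and 5.26 at day 6, Phloem protein 2 is at 84.8, 525 and 3178 over the 3 days, and the seed nucellus-specific gene is at 1.65 at day 9.

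Of 121 ethylene genes 47 were at least 2-fold higher and 5 lower. Of 70 ethylene-responsive transcription factors 36 were at least 2-fold higher and 1 lower, with a median of 1.02 in flesh and 0.36 in peel. Their median for day 9 over day 3 in flesh was 0.35. These factors, and the ACC oxidases and ACC synthases below, were made subsets after values were seen. Ethylene responsive transcription factor 2a (Csa7G073700) had 36.9 FPKM and 451 reads at day 9 and was listed at 0 at day 6, which makes it at least 202-fold higher against a limit of 3 reads. The most abundant member of the ethylene list, the Ethylene-responsive transcription factor Csa7G049230, had 549 FPKM at day 9 against 43.0 FPKM at day 6. ACC oxidases, which release ethylene in the last step of its synthesis, had a median of 0.10. Of these 7 of 31 (22.6%) were at least 2-fold higher and 3 (9.68%) lower. Of 3 described ACC synthases, which make the precursor, 1 was at least 2-fold higher and 0 lower, with a median of 0.16. That 1 gene, Csa4G049610, had 44.9 FPKM at day 9 against 1.19 FPKM at day 6, and 9.02 FPKM at day 3.

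Jasmonate ZIM and abscisic acid genes leaned the same way, while lipoxygenases as a list did not. Jasmonate ZIM domain proteins, repressors that jasmonate itself induces, had 6 of 15 at least 2-fold higher and 0 lower. This list, formed after values were seen, summed to 1148, 322 and 984 FPKM in flesh over days 3, 6 and 9. Jasmonate ZIM domain protein f (Csa1G435790) had 249 FPKM at day 9 against 11.5 FPKM at day 6. A Lipoxygenase (Csa7G449420), an enzyme at the start of jasmonate and aroma formation, had 114 FPKM at day 9 against 9.03 FPKM at day 6, with 124 FPKM at day 3, whereas the Lipoxygenase Csa2G023900 had 195 FPKM at day 9 against 422 FPKM at day 6. The lipoxygenase list had 3 of 14 genes at least 2-fold higher and 3 lower, with a median of -0.01. Of 21 abscisic acid genes 5 were at least 2-fold higher and 0 lower. Among them the Abscisic acid receptor PYL8 (Csa7G327730) had 55.9 FPKM at day 9 against 13.8 FPKM at day 6. A 9-cis-epoxycarotenoid dioxygenase (Csa4G064690), the control step of abscisic acid synthesis, had 113 FPKM at day 9 and 114 FPKM at day 6.

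The 584 genes at least 4-fold higher at day 9 had median levels of 8.92, 4.74 and 41.7 FPKM in flesh over days 3, 6 and 9, and of 17.0, 19.0 and 39.7 FPKM in peel. For the 178 genes at least 4-fold lower the medians were 7.92, 12.2 and 0.690 FPKM in flesh, beside 5.51, 3.97 and 1.76 FPKM in peel. The flesh medians at days 6 and 9 follow from how these genes were chosen. Both steps of the flesh use the day 6 library, so a value peculiar to that library would enter both. Genes of heat shock and wounding, listed as signs of handling, summed to 2271, 2605 and 2941 FPKM in flesh over days 3, 6 and 9. Of 66 such genes 9 (13.6%) were at least 2-fold higher at day 9 than at day 6 and 13 (19.7%) were at least 2-fold lower. Over all genes these shares were 11.6% and 8.01%. The median of the 66 genes was -0.06. The Putative wound-induced protein Csa7G046650 had 121 FPKM at day 9 against 17.8 FPKM at day 6, and the abundant 70-kDa heat shock protein Csa4G295440 had 160.3 FPKM at day 9 against 353 FPKM at day 6. Their part in the differences of the other lists was not tested.

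Genes of phenolic metabolism, which makes the polyphenols linked to astringency, were lower in flesh than in peel at both days as a sum. The 39 genes of phenylpropanoid entry summed to 232 FPKM at day 9 against 190.3 FPKM at day 6, and to 491 FPKM at day 3, while the day 9 peel held 2231 FPKM. Of 29 described, 7 were at least 2-fold higher and 2 lower, with medians of 0.44 in flesh and 0.90 in peel. The Phenylalanine ammonia-lyase Csa6G445760, of the enzymes that open the pathway, had 17.7 FPKM at day 9 against 3.12 FPKM at day 6. In the flavonoid list 5 of 23 genes were at least 2-fold lower and 1 higher. A Chalcone flavonone isomerase (Csa5G221960), which closes a ring of the flavonoid skeleton, had 0.780 FPKM at day 9 against 16.4 FPKM at day 6, 20.7-fold lower in reads (12.4 to 37.4), while peel had 42.0 FPKM at day 9 and 38.7 FPKM at day 6. Lignin genes were even, with 8 of 59 at least 2-fold higher and 9 lower. Laccase-22 (Csa5G160220), an oxidase of lignin precursors, had 52.2 FPKM at day 9 against 205 FPKM at day 6. An N-hydroxycinnamoyl/benzoyltransferase (Csa3G183330) had 5.80 FPKM at day 9 against 33.0 FPKM at day 6. All 5 triterpene genes described, which lead towards sterols and cucurbitacins, had negative differences, from -0.85 to -0.14, and 0 were at least 2-fold lower.

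Sugar and starch lists showed no common direction, with medians of 0.02 and -0.04. In them a Beta-amylase (Csa3G133950), which releases maltose from starch, had 162 FPKM at day 9 against 19.2 FPKM at day 6, and 30.8 FPKM at day 9 against 39.6 FPKM at day 6 in peel. The Bidirectional sugar transporter N3 (Csa6G092510) had 0.529 FPKM at day 9 against 24.4 FPKM at day 6, 46.1-fold lower in reads (22.2 to 115). The 10 cytokinin genes described had 4 positive and 6 negative differences, with a median of -0.13. Among them, a riboside 5'-monophosphate phosphoribohydrolase-like gene (Csa6G127300), named for the enzyme that frees active cytokinin, had 89.5 FPKM at day 9 against 17.7 FPKM at day 6. In the seed and ovule list 5 of 36 genes (13.9%) were at least 2-fold higher and 2 (5.56%) lower. These shares were near the 11.6% and 8.01% over all genes. At day 9 the list summed to 5833 FPKM in peel against 4528 FPKM in flesh, so it was not particular to flesh. In that list the Late embryogenesis abundant protein 3L-1 (Csa7G398090) had 3547 FPKM at day 9 against 1114 FPKM at day 6 in flesh, and 4875 FPKM at day 9 against 1472 FPKM at day 6 in peel. The Translationally-controlled tumor protein homolog (Csa3G154390), a growth-related protein, had the second largest gain in FPKM, with 5609.8 FPKM at day 9 against 2141 FPKM at day 6, and 2979 FPKM at day 3.

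Genes past 4-fold lay next to each other in places. In 8 stretches, at least 3 genes with at most 2 other genes between neighbours were all at least 4-fold higher at day 9. The longest held 6 genes on chromosome 5, from 5265479 to 5294557, with a Thaumatin-like protein (Csa5G155450, 24.5 FPKM at day 9 against 2.57 FPKM at day 6), a heat stress factor and a calmodulin-binding protein among them. That protein was chosen after its values were seen, and the Putative thaumatin-like protein Csa5G155430 beside it rested on 3 reads at day 9 and 0 at day 6. The genome build of these coordinates, and whether starts count from 0 or 1, were not given in the sources used here.

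The flesh step was set beside the same days in peel, which uses no library in common with it. In peel 683 of 17439 genes (3.92%) were at least 4-fold higher at day 9 and 380 (2.18%) were at least 4-fold lower, so losses were a larger part of the peel step. Across the 16354 genes described in both tissues the differences had a Pearson correlation of 0.44 and a Spearman correlation of 0.47, as a description over genes, which are not independent replicates. Both tissues had 98 genes at least 4-fold higher, which is 17.3% of the 565 in flesh and 20.9% of the 470 in peel. Over all genes in this comparison 3.45% were at least 4-fold higher in flesh and 2.87% in peel. Both had 34 genes at least 4-fold lower, which is 25.2% of the 135 in flesh and 9.63% of the 353 in peel. Over all genes 0.825% were that much lower in flesh and 2.16% in peel. In opposite directions, 8 genes were at least 4-fold lower in flesh and at least 4-fold higher in peel. They are 5.93% of the 135, beside 2.87% over all genes. Most of the 8 had no product name and lay near the floor. These unnamed genes were listed at 0 in peel at day 6 and at most 0.869 FPKM in flesh at day 9. In peel at day 9 they had at most 8.72 FPKM. Another 5 were higher in flesh and lower in peel, 0.885% of the 565, beside 2.16% over all genes.

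**Figure D4:**
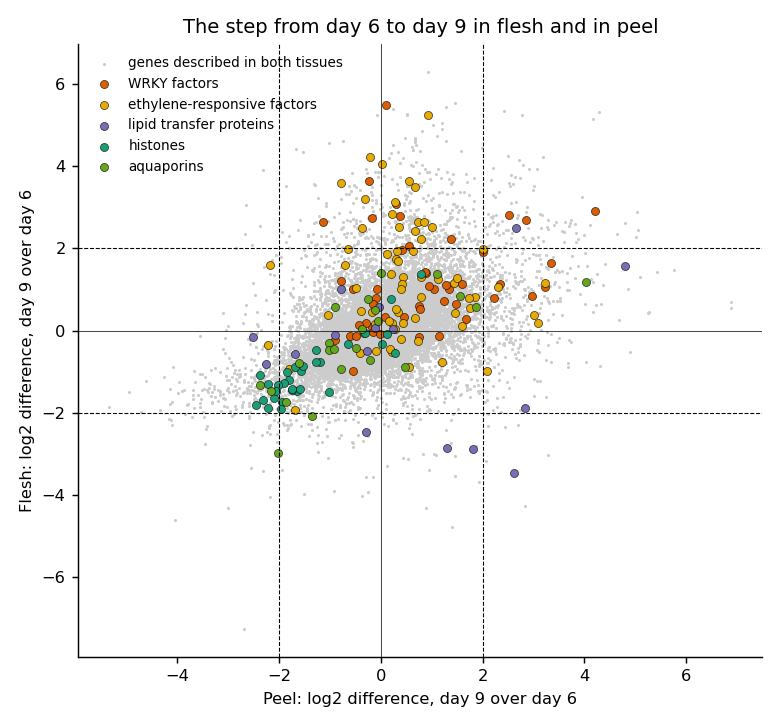
Log2 difference of day 9 over day 6 in flesh (vertical axis) against peel (horizontal axis) for the 16354 genes described in both tissues, with dashed lines at 4-fold. Histones sit low in both tissues, ethylene-responsive factors spread upwards in flesh, and the lipid transfer proteins Csa4G333620 and Csa3G728130 lie low in flesh and high in peel.

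Lipid transfer proteins, which carry wax and cutin parts to the surface, included members whose values went apart between the tissues. In flesh 7 of 20 were at least 2-fold lower at day 9 and 4 at least 2-fold higher, and the list summed to 522 FPKM at day 9 against 745 FPKM at day 6. In peel it summed to 10567 FPKM at day 9 against 2181 FPKM at day 6, but the median difference of the 20 genes there was 0.00, so the larger sum does not describe the typical member. The most abundant member in flesh, the Lipid transfer protein Csa1G602030, had 123 FPKM at day 9 against 216 FPKM at day 6 in flesh and 10.8 FPKM at day 9 against 54.8 FPKM at day 6 in peel, lower at day 9 in both. The Non-specific lipid-transfer protein Csa4G333620 had 1.66 FPKM at day 9 against 28.3 FPKM at day 6 in flesh, and 1330.0 FPKM at day 9 against 216 FPKM at day 6 in peel. Csa3G728130 had 4.23 FPKM at day 9 against 37.6 FPKM at day 6 in flesh and 3712 FPKM at day 9 against 1060.0 FPKM at day 6 in peel. Of 14 cuticle and wax genes described in flesh 6 were at least 2-fold lower and 0 at least 2-fold higher. Their median of -0.61 rested on low genes, being 0.01 with a limit of 5 FPKM in either flesh library. The CER1 protein Csa3G127760, of the enzymes that form wax alkanes, had 0.805 FPKM at day 9 against 27.3 FPKM at day 6 and at most 4.13 FPKM in peel. The related gene Csa1G294020 had 0.374 FPKM at day 9 against 5.14 FPKM at day 6 in flesh and 54.1 FPKM at day 9 against 31.4 FPKM at day 6 in peel. A 3-ketoacyl-CoA synthase (Csa1G418240), which lengthens fatty acids for wax, had 49.8 FPKM at day 9 and 49.2 FPKM at day 6 in flesh. With 1 library for each tissue and day, a difference between the steps of the 2 tissues could not be tested.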

How the data were processed

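RNA of 6 samples (peel and flesh at days 3, 6 and 9) was sequenced. Each library mixed 3 fruits, per the labels' protocols, which also describe mRNA isolation and removal of rRNA. Per the submitters' processing notes, TopHat and Cufflinks 2.1.1 were used. The genome build, the annotation and any strand setting were not given in the sources used here. The authors deposited FPKM values and, beside them, counts scaled between libraries (a signal per gene, not whole numbers). Dividing this deposited signal by its smallest step gave whole reads (within 0.05) for 99.4 to 100.0% of values. Reads of near-identical or overlapping genes may be split, and 1023 genes share a locus with another.

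From these values were computed log2(FPKM + 1) differences, with a limit of 1 FPKM in either flesh library, and counts past 2-fold and 4-fold. Ratios of reads, scaled by the value of 1 read in each library, have exact Clopper-Pearson 95% intervals for counting error only. With 1 library per group there are 0 residual degrees of freedom, so no test was run.

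Lists were product-name patterns. The 38 lists first written, the members and the rules were chosen with earlier results of these data known. A further 9 families and 13 subsets were added, and some patterns corrected, after values were seen. The families were calcium sensors, dehydration responsive element binding factors, protein phosphatases, U-box ligases, jasmonate ZIM proteins and heat stress factors. Tubulins, DC2.15 and proline-rich proteins, and nucellus genes were the other families. The subsets included kinesins, XTH genes, expansins, ethylene-responsive factors, ACC oxidases and synthases, SAUR genes and those of the phloem list. Counts and medians of a list cover members at 1 FPKM or more in either flesh library, and summed FPKM cover all its genes.

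Genes named by rule had a product name and at least 20 FPKM in the higher library (12 largest differences each way), were among the 5 largest gains or losses in FPKM, or were in a list (2 largest differences at 5 FPKM or more, and the most abundant member). The others are marked as chosen after their values were seen. Alternatives were other pseudocounts, limits, scalings and bounds. Calculations used Python 3.11.15, numpy 2.4.6, pandas 2.3.3, scipy 1.17.1 and matplotlib 3.10.9, and were tested on simulated data.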

Additional observations from a re-analysis of the deposited data

Results flagged for a closer look

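Named genes at least 4-fold higher in 1 tissue and at least 4-fold lower in the other are given here, because the step from day 6 to day 9 had opposite signs in flesh and peel. The difference between the tissues was not tested, since each step rests on 1 library per day.

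The Calcium-dependent protein kinase Csa1G690150 had a log2 difference of -2.31 in flesh (2.59 FPKM at day 9 against 16.8 FPKM at day 6) and of 2.11 in peel (27.5 FPKM at day 9 against 5.62 FPKM at day 6). Kelch-like protein 18 (Csa3G792070) had -2.02 in flesh (25.5 FPKM at day 9 against 106 FPKM at day 6) and 2.11 in peel (82.1 FPKM at day 9 against 18.2 FPKM at day 6). These 2 genes were picked once their values had been seen. The Non-specific lipid-transfer protein Csa4G333620 had -3.46 in flesh and 2.62 in peel. Xyloglucan endotransglucosylase/hydrolase 1 (Csa6G423390) had 3.90 in flesh and -2.32 in peel.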

How the results depend on the processing

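The counts of genes past 4-fold depended on how low values were treated. A pseudocount of 0.1 gave 912 higher and 514 lower, a pseudocount of 5 gave 293 and 37, and a 2-fold bound gave 1982 and 1367. Scaling to the upper quartile moved the median difference of all genes to -0.126, so smaller differences depend on the scaling. Under the other alternatives both counts stayed within 1.5 times. Of the 98 named genes past 4-fold, 30 missed it under at least 1 alternative, and 0 changed sign. Medians reversed for YABBY genes (-1.16 with at least 5 FPKM), for cuticle and wax (0.01 with at least 5 FPKM, 0.03 with at least 1 FPKM in all 6 libraries, an alternative chosen after seeing the data) and for SAUR and auxin-induced genes (0.04 and 0.13 under the same limits). The cause was not tested. No paired analysis was possible because each tissue and day has 1 library, and for the same reason no library could be left out. Depth limits genes near 1 FPKM most.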

Other observations

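A pair of genes chosen after their values were seen were low in peel and higher in flesh at day 9. Terminal flower 1 (Csa1G071830), a relative of the flowering signal FT, had 19.2, 55.0 and 158 FPKM in flesh over days 3, 6 and 9 and at most 7.46 FPKM in peel. A Homeobox-leucine zipper-like protein (Csa5G635430) had 0.440, 3.04 and 28.7 FPKM in flesh over days 3, 6 and 9, and at most 0.911 FPKM in peel. Both were higher in flesh at day 9 than at day 6, whereas the nucellus-named genes, which were also at most 0.960 FPKM in peel, were lower there. The 584 genes at least 4-fold higher included 103 (17.6%) without a product name, and the 178 lower included 64 (36.0%), against 11.8% of all genes described. Among genes without a product name, Csa7G336450 was listed at 0 in flesh at day 9 against 151 FPKM and 2668 reads at day 6, at least 663-fold lower. In peel it had 26.0 FPKM at day 9 against 171 FPKM at day 6.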
